A study of Homo sapiens with 12 samples.

Results

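HSP90 and its co-chaperones were followed as 9 genes taken by symbol from a table of gene counts, out of 43735 entries in all. They comprise both cytosolic HSP90 paralogs, HSP90AA1 and HSP90AB1, the mitochondrial paralog TRAP1, and the co-chaperones STIP1, CDC37, AHSA1, PTGES3, FKBP4 and CHORDC1. They were taken by name, with earlier results of these data known. All 9 genes passed the filter on low counts that left 14085 genes for testing. RNA sequencing covered 12 cultures of the human multiple myeloma cell lines MM1S, which is sensitive to glucocorticoids, and MM1R, which is resistant. Untreated cultures and cultures exposed to withaferin A (WA) at 1 µM for 3 h formed 4 groups of 3, grown in the same medium with serum. Replicates were cultures of passage 16, 22 and 23 for MM1S and of passage 4, 6 and 7 for MM1R, with an untreated and a WA culture at each passage. The p-values therefore measure the spread between passages within groups, estimated over all 12 cultures in 1 fit. The main fit did not use the shared passage of untreated and WA cultures. Both lines go back to the same patient, no vehicle control is named in the labels, and passage number and line cannot be told apart.

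HSP90 is an ATP-driven dimeric chaperone that completes the folding of kinases, steroid receptors and other clients handed over from HSP70. STIP1 (HOP) bridges HSP70 and HSP90, CDC37 brings in kinases, AHSA1 speeds up the ATPase, PTGES3 holds the closed state and FKBP4 is an immunophilin of steroid receptor complexes. HSP90AB1 is the constitutive cytosolic paralog and HSP90AA1 the stress-inducible one, which is transcribed by HSF1 from heat shock elements, inverted repeats of the unit GAA. Plasma cells and myeloma cells carry a heavy load of secreted protein. WA is a plant steroidal lactone with reactive groups that bind cysteines, and HSP90 has been described among its binding partners.

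Because several of the genes rose together, the start sites of the 9 genes were searched for heat shock elements. RefSeq start-site windows, which run from 250 bases before the start to 50 bases after it, were at hand for 8 of the 9 genes and were placed on GRCh37 (hg19) by exact match. The element with 3 units was written GAANNTTCNNGAA or, on the other strand, TTCNNGAANNTTC, and the shorter form with 2 units GAANNTTC or TTCNNGAA, so that each long match contains short ones. The long form was found at 3 genes, HSP90AA1, HSP90AB1 and CHORDC1, and is held by 0.608% of all 27305 genes with a window (0.49% of 35116 windows). The stretches with these matches are printed on the strand of the gene, with the matched letters in capitals.
HSP90AA1: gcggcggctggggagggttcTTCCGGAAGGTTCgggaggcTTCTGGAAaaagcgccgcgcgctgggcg
HSP90AB1: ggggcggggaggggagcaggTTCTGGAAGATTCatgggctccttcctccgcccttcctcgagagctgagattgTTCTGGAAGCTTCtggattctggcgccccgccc
CHORDC1: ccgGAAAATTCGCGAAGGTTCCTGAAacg

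The HSP90AA1 stretch lies at chr14:102553422-102553489 (minus strand), and its long match ends 76 bases before the start at position 102553381. The HSP90AB1 stretch at chr6:44215495-44215600 (plus strand) holds 2 long matches, which belong to an alternative start at position 44215680 inside an intron of the canonical transcript. At CHORDC1, chr11:89956252-89956280 (minus strand), 3 overlapping long matches run together from 60 to 38 bases before the start. None of the 3 stretches overlaps an annotated exon. STIP1 had only a short match, 13 bases after one of its starts, and either short form is held by 13.5% of all windows. These letters were not in the windows of PTGES3, AHSA1, TRAP1 and CDC37, and for FKBP4 no window was read. Of the other co-chaperones described later, 0 of 20 with a window had the long form, against 0 of 21 client genes. A match describes the sequence only, and binding was not measured.

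The libraries held 17625110 to 19368343 counted reads with a median of 18555625. In a principal component analysis, both MM1S libraries of passage 16 stood apart from the other MM1S libraries, at 30.7 and 26.5 on the third component against -17.1 to -3.15. On the first component, which separated the lines, they stood at 20.7 (untreated) and 5.79 (WA). The other MM1S libraries lay there at 29.8 to 42.7 and those of MM1R at -38.2 to -21.4. The tests behind the calls over all genes and the 9 genes were therefore also run without both passage 16 libraries. Other results on MM1S were not recomputed in this way. All 9 plasma cell markers on a fixed list (such as SDC1, TNFRSF17 and JCHAIN) had at least 10 reads in every library. Their summed level was 16998 to 18686 CPM (counts scaled to the TMM-adjusted library size) in untreated MM1R and 13211 to 16938 with WA. For MM1S the sum was 10919 to 12273 CPM untreated and 9948 to 12354 with WA. JCHAIN gave the largest part, with means of 11996 CPM in untreated MM1R and 6435 CPM in untreated MM1S. Only CD38 had a lower mean in untreated MM1R than in untreated MM1S (44.5 against 91.3 CPM). Among 9 markers of other cell types, CD3D and LYZ had at most 3 reads in every library. At least 10 reads in every library were found for 3 of the 9, CD3E (63 to 211), PECAM1 (187 to 497) and HBB (63 to 178). The summed level of all 9 was 36.4 to 43.0 CPM in untreated MM1R and 39.7 to 48.4 with WA. In MM1S it was 27.5 to 37.1 CPM untreated and 31.6 to 35.4 with WA. Among these 9 markers, the test called only the fibroblast collagen COL1A1. Its mean rose from 1.93 to 10.7 CPM in MM1R and from 0.718 to 4.95 CPM in MM1S. Of the plasma cell markers, IRF4 fell by 0.96 in MM1R and 0.73 in MM1S on the log2 scale and SLAMF7 rose by 0.40 and 0.53, and the other 7 were not called. With passage as replicate block, PRDM1 (-0.40 in each line) and TNFRSF17 (-0.39 in MM1R and -0.41 in MM1S) were called lower in both lines, CD38 was called higher in MM1R, and PECAM1, a marker of other cell types, was called lower in both. The part of these markers in the results was not tested. In bulk RNA of this kind, fewer cells of a type and less RNA per cell cannot be told apart.

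WA raised 7 of the 9 genes in each line. The largest rise was that of HSP90AA1, by 12.9 times in MM1R and 11.4 times in MM1S, followed by CHORDC1, HSP90AB1 and FKBP4 and then by STIP1, PTGES3 and AHSA1 (PTGES3 before STIP1 in MM1R), whereas CDC37 and TRAP1 did not pass the limit of an adjusted p of 0.05 (edgeR, Benjamini-Hochberg over all 14085 genes). Among all genes tested, 7.55% were called higher in MM1R and 6.25% in MM1S, and 4.96% were called higher in both lines. As the 9 genes were chosen with earlier results known, these shares are given as context and are no test of the count. On the log2 scale the median change over the 9 genes was 1.13 in MM1R and 1.18 in MM1S, against 0.01 over all genes tested in each line. The CPM of the 7 genes did not overlap between untreated and WA cultures in either line, a pattern shown in the higher direction by 17.3% of all genes in MM1R and 16.4% in MM1S. Without both passage 16 libraries, the same test still called 7 of the 9 genes in MM1S.

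**Figure D1:**
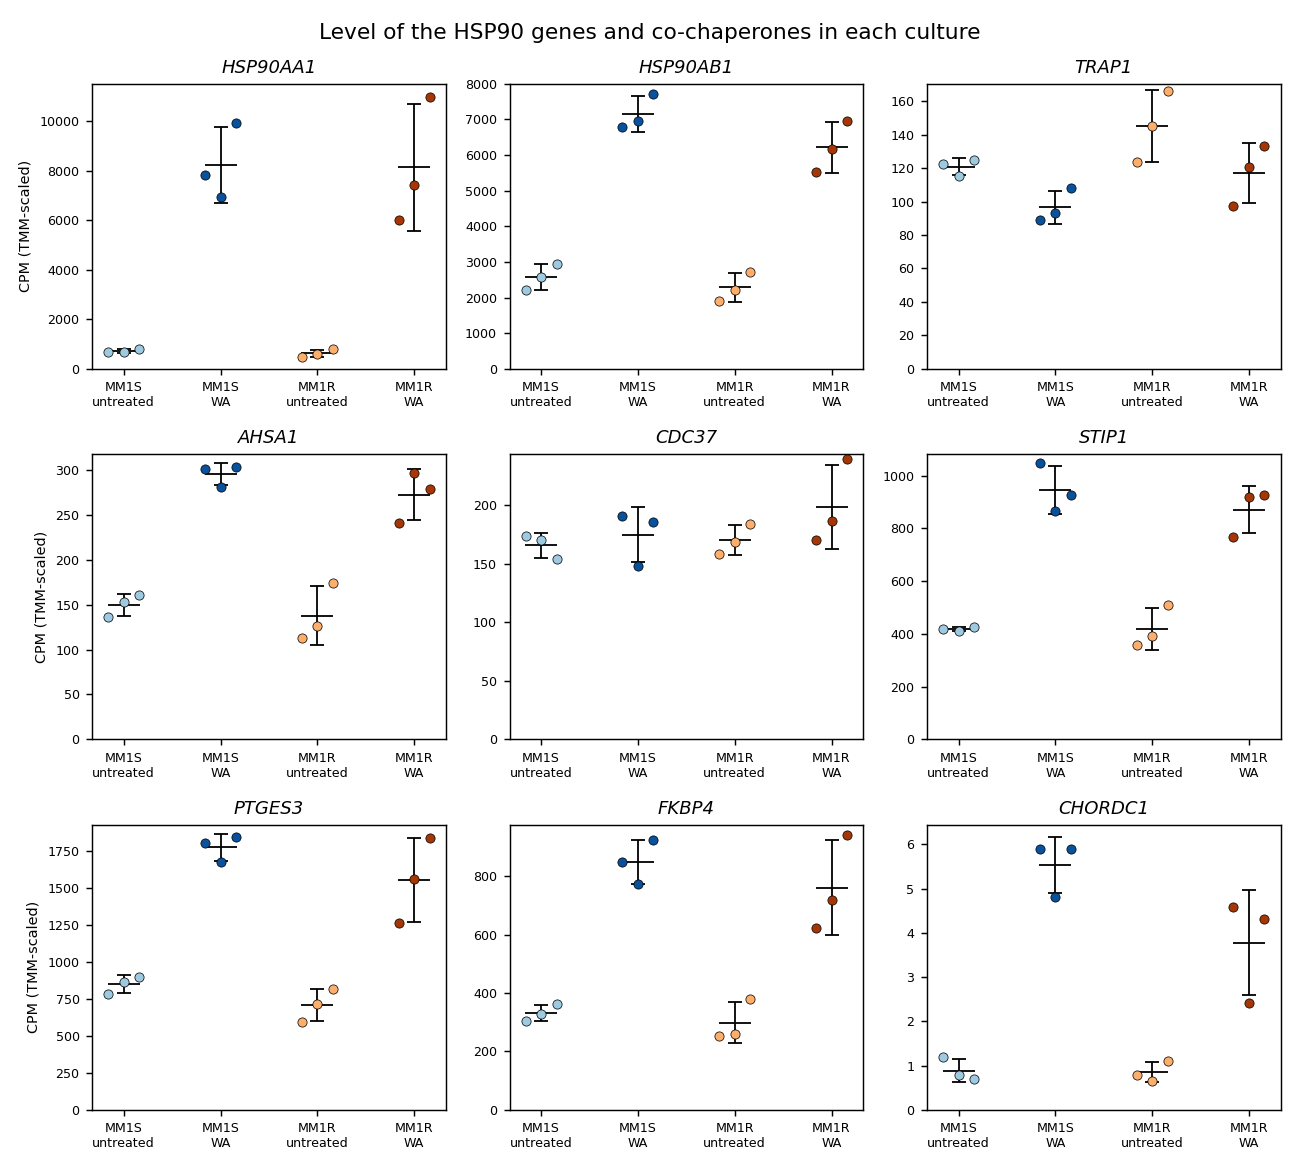
Level of each of the 9 genes in CPM (linear axes from 0) in the 3 cultures of each group, with points for cultures in order of passage number and bars for mean and SD. The 7 rising genes are separated by treatment in both lines, CDC37 overlaps, and TRAP1 is lower with WA at every passage, with overlap in MM1R.

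**Figure D2:**
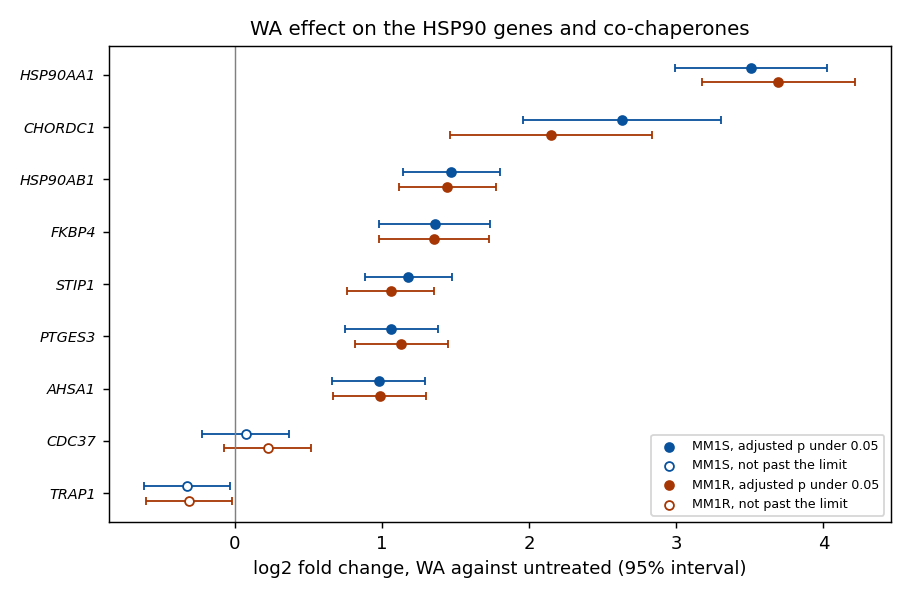
Log2 fold change of each gene with WA against untreated cultures in MM1S and MM1R, with 95% intervals from the edgeR fit, filled where the adjusted p was under 0.05. HSP90AA1 stands at 3.51 and 3.69, the other 6 called genes lie between 0.98 and 2.63, and the intervals of the lines overlap for all 9 genes.

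HSP90AA1 (chr14:102547079-102606036, minus strand, 11 exons in the canonical transcript) measured 671, 697 and 808 CPM in untreated MM1S of passage 16, 22 and 23 and 7841, 6950 and 9932 CPM in the matching WA cultures. In MM1R of passage 4, 6 and 7 it measured 496, 606 and 785 CPM untreated and 6003, 7415 and 11001 CPM with WA. The lowest WA culture was thus far above the highest untreated culture in each line, and passage 7 was the highest MM1R culture both before and after WA. The log2 fold change was 3.69 ± 0.24 (SE, n = 3 against 3, adjusted p = 1.4e-06 by edgeR) in MM1R and 3.51 ± 0.24 (adjusted p = 2.4e-06 by edgeR) in MM1S. Within the 3 pairs of the same passage, the log2 change was between 3.60 and 3.81 in MM1R and between 3.32 and 3.62 in MM1S.

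HSP90AB1 (chr6:44213903-44221625, plus strand, 12 exons) started from a higher level and rose less. It measured 2214, 2573 and 2945 CPM in untreated MM1S and 6778, 6947 and 7715 CPM with WA, in order of passage. In MM1R the levels were 1914, 2222 and 2715 CPM untreated and 5522, 6185 and 6948 CPM with WA. The WA cultures of both lines again lay above all untreated cultures, with log2 fold changes of 1.45 ± 0.15 (SE, n = 3 against 3, adjusted p = 6.1e-05 by edgeR) in MM1R and 1.47 ± 0.15 (adjusted p = 5.5e-05) in MM1S.

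The balance between the paralogs shifted with WA. For each HSP90AB1 read there were 0.303, 0.271 and 0.274 HSP90AA1 reads in untreated MM1S of passage 16, 22 and 23, and 1.16, 1.00 and 1.29 with WA. In MM1R of passage 4, 6 and 7 there were 0.259, 0.273 and 0.289 untreated and 1.09, 1.20 and 1.58 with WA. The log2 ratio thus differed by 2.22 between the group means in MM1R and by 2.02 in MM1S, and no WA culture fell near the untreated range. Together, both genes took 0.250% to 0.390% of all counted reads in untreated cultures and 1.19% to 1.72% with WA, and all 9 genes took 0.416% to 0.611% and 1.52% to 2.14%. These ratios and shares were given no test of their own.

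**Figure D3:**
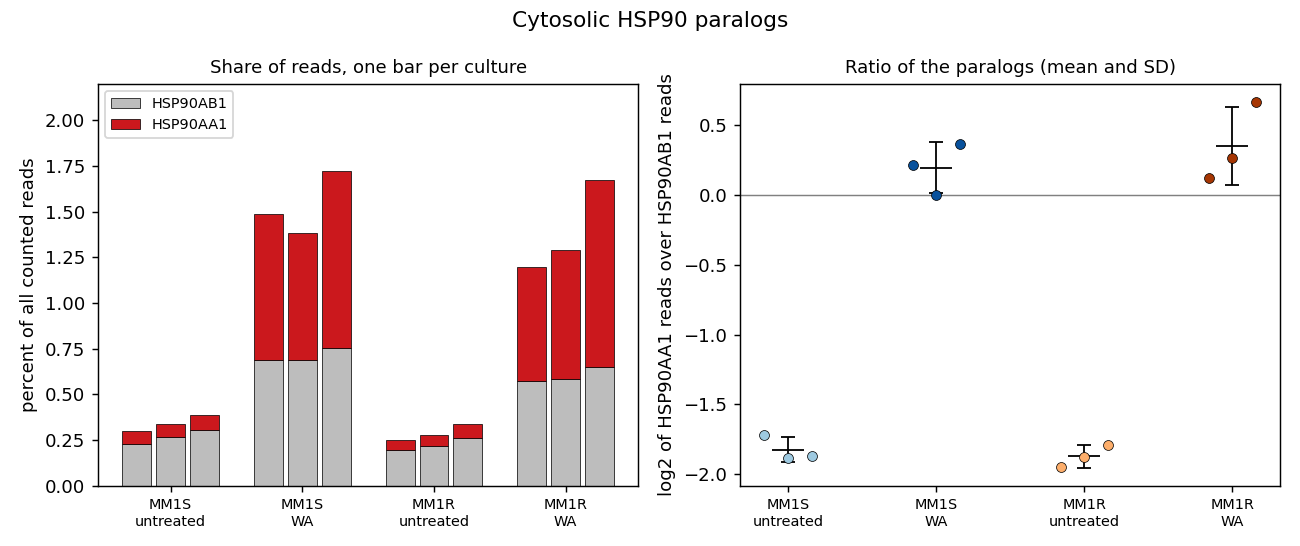
Left, share of all counted reads (percent) taken by HSP90AB1 and HSP90AA1, stacked, with 1 bar per culture in order of passage number. Right, log2 of HSP90AA1 reads over HSP90AB1 reads per culture with mean and SD, where untreated cultures lie between -1.95 and -1.72 and WA cultures between 0.00 and 0.66.

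Levels of different genes were compared per kilobase of canonical transcript. In untreated MM1R, HSP90AB1 had 894 ± 158 CPM per kb (SD, n = 3), PTGES3 373 ± 57.8, STIP1 195 ± 37.3, HSP90AA1 195 ± 45.2, CDC37 105 ± 7.93, AHSA1 103 ± 24.4, FKBP4 80.1 ± 18.9, TRAP1 65.3 ± 9.62 and CHORDC1 0.277 ± 0.0757. The order was the same in untreated MM1S except that HSP90AA1 (225 ± 22.5) and STIP1 (196 ± 3.30) changed places, as did AHSA1 (112 ± 9.19) and CDC37 (103 ± 6.64). The ranges of both latter pairs overlapped in MM1R, so that these neighbours did not differ beyond their spread there, and in MM1S the range of AHSA1 overlapped that of CDC37 while that of HSP90AA1 lay above that of STIP1. FKBP4 overlapped CDC37 in both lines, and AHSA1 and TRAP1 in MM1R, while CHORDC1 lay far below every other gene. Since the rules of the read counting are not given in the sources used here, the low level of CHORDC1 may come from the counting and need not be that of its transcript. With WA, HSP90AA1 reached the range of HSP90AB1 in level per kb. The values were 2522 ± 798 and 2434 ± 279 CPM per kb in MM1R and 2553 ± 474 and 2797 ± 196 in MM1S, with overlapping ranges in both lines.

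**Figure D4:**
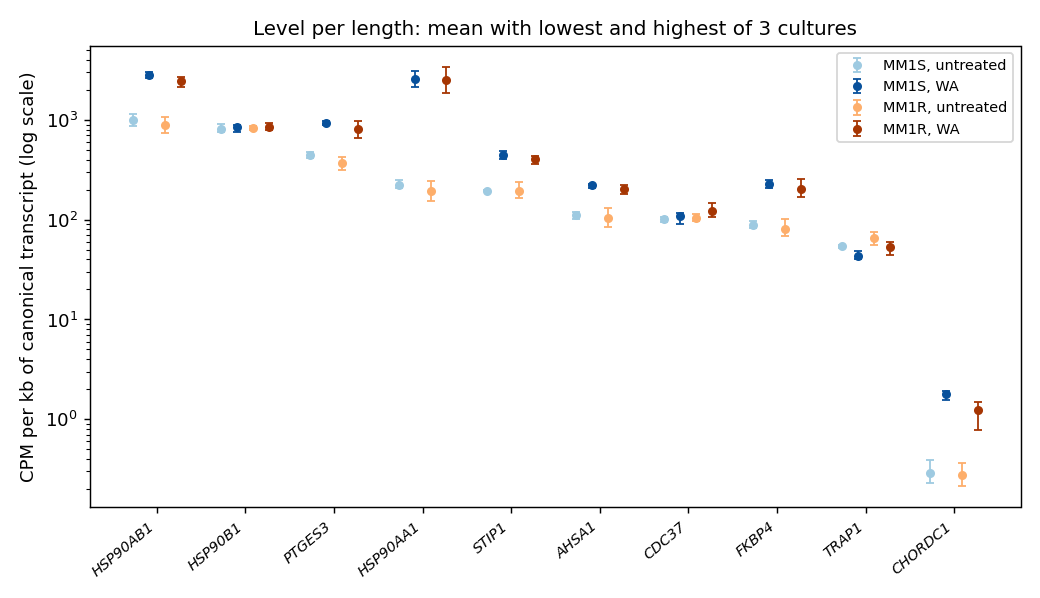
Level per kilobase of canonical transcript (CPM per kb, log axis) of the 9 genes and of HSP90B1, the paralog of the endoplasmic reticulum, with the mean, lowest and highest of 3 cultures per group. With WA, HSP90AA1 reaches the range of HSP90AB1, HSP90B1 stays between 752 and 938 in all groups, and CHORDC1 lies far below the other genes.

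STIP1 and CDC37, which load clients onto HSP90, differed in their response. STIP1 (chr11:63952744-63972015, plus strand, 14 exons) measured 419, 411 and 425 CPM in untreated MM1S and 1046, 867 and 928 CPM with WA. In MM1R it measured 356, 390 and 508 CPM untreated and 766, 919 and 926 CPM with WA. This was a rise of 1.06 ± 0.14 (log2, SE, n = 3 against 3, adjusted p = 0.00027 by edgeR) in MM1R and 1.18 ± 0.14 (adjusted p = 0.00013) in MM1S. CDC37 (chr19:10501809-10530797, minus strand, 8 exons) measured 174, 170 and 154 CPM in untreated MM1S and 191, 148 and 185 CPM with WA, and 158, 169 and 184 CPM in untreated MM1R and 170, 186 and 239 CPM with WA. Its treated and untreated cultures overlapped in both lines, at log2 fold changes of 0.22 (95% interval -0.07 to 0.52, adjusted p = 0.32 by edgeR) in MM1R and 0.08 (interval -0.22 to 0.37, adjusted p = 0.80) in MM1S.

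AHSA1, PTGES3 and FKBP4, which act on the ATPase cycle and on the late complexes, all rose in both lines, by 0.98 to 1.36 on the log2 scale. AHSA1 (chr14:77924213-77935815, plus strand, 9 exons) went from 136, 153 and 160 CPM to 302, 281 and 303 CPM in MM1S and from 112, 126 and 175 CPM to 241, 297 and 279 CPM in MM1R. Its log2 fold change was 0.99 ± 0.15 (SE, n = 3 against 3, adjusted p = 0.00078 by edgeR) in MM1R and 0.98 ± 0.15 (adjusted p = 0.00094) in MM1S, and the MM1R change was smallest at passage 7 (0.68 within the pair). PTGES3 (chr12:57057125-57082192, minus strand, 8 exons) went from 783, 865 and 900 CPM to 1804, 1673 and 1845 CPM in MM1S and from 595, 714 and 814 CPM to 1264, 1558 and 1833 CPM in MM1R. Its log2 fold change was 1.13 ± 0.15 (adjusted p = 0.00027) in MM1R and 1.06 ± 0.15 (adjusted p = 0.00049) in MM1S.

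FKBP4 (chr12:2904136-2914589, plus strand, 10 exons) measured 305, 327 and 361 CPM in untreated MM1S and 848, 773 and 924 CPM with WA. In MM1R it measured 253, 261 and 379 CPM untreated and 624, 718 and 941 CPM with WA. The treated cultures lay above the untreated ones in both lines. The log2 fold change was 1.35 ± 0.18 (SE, n = 3 against 3, adjusted p = 0.00027 by edgeR) in MM1R and 1.36 ± 0.18 (adjusted p = 0.00029) in MM1S.

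CHORDC1 (chr11:89933597-89956245, minus strand, 11 exons), an HSP90 co-chaperone with zinc-binding CHORD domains, had the second largest fold change but few reads. It had 23, 15 and 14 reads in untreated MM1S and 109, 90 and 108 reads with WA, and 15, 12 and 19 reads in untreated MM1R and 86, 43 and 71 reads with WA. Treated and untreated read numbers did not overlap in either line. The log2 fold change was 2.15 ± 0.32 (SE, n = 3 against 3, adjusted p = 0.00073 by edgeR) in MM1R and 2.63 ± 0.31 (adjusted p = 0.00015) in MM1S, the widest errors among the 9 genes, and these low counts limit the precision.

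TRAP1 (chr16:3701640-3767554, minus strand, 18 exons), the HSP90 of the mitochondrial matrix, did not rise. It measured 123, 115 and 125 CPM in untreated MM1S and 88.9, 93.0 and 108 CPM with WA, and 124, 145 and 166 CPM in untreated MM1R and 97.5, 121 and 133 CPM with WA. The WA culture was the lower one in all 6 pairs of the same passage, a pattern shared by 2811 of the 14085 genes tested. The groups did not overlap in MM1S, as for 13.9% of genes in the lower direction, and overlapped in MM1R, where 16% of genes were lower without overlap. The log2 fold change of -0.31 ± 0.14 (SE, n = 3 against 3) in MM1R and -0.32 ± 0.14 in MM1S did not pass the limit (adjusted p = 0.15 by edgeR in each line). In the fit with passage as replicate block, it passed at -0.31 (adjusted p = 0.012 by edgeR) in MM1R and -0.33 (adjusted p = 0.011) in MM1S. That fit called 14.7% of genes higher and 14.4% lower in MM1R and 12.5% and 11.7% in MM1S, and of the 9 genes it called 7 higher and 1 lower in each line.

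Entries for near-identical copies were picked by symbol, included no copy of HSP90AA1 and held few reads. The entry HSP90AB4P had 0 to 5 reads, at most 0.0117% of those of HSP90AB1 in any library, and the second entry for CHORDC1 had 0. The entry AHSA2P, similar in symbol to AHSA1, was not picked by this rule. It held 407 to 1853 reads, against 2159 to 5565 for AHSA1. With passage as replicate block, AHSA2P was called higher with WA in both lines (1.08 in MM1R and 0.98 in MM1S, log2). How reads shared between copies were counted is not given in the sources used here.

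The lines were compared next, to see whether glucocorticoid-resistant MM1R cells differed from MM1S cells in these genes. None of the 9 genes (0 of 9) was called between untreated MM1R and MM1S or between the WA cultures where edgeR's adjusted p had to be under 0.01 and the log2 fold change 1 or more in size, limits that 2.97% and 3.04% of all genes passed. At an adjusted p of 0.05 without a limit on the fold change, which 11.9% and 12% of genes passed, the count was again 0 of 9 in both comparisons. It was also 0 at an unadjusted p under 0.05, which 3649 of all genes had in untreated cultures and 3944 with WA, and 0 by DESeq2. In untreated cultures the log2 difference of MM1R from MM1S lay between -0.26 for PTGES3 (95% interval -0.58 to 0.05) and 0.26 for TRAP1 (interval -0.03 to 0.56), with HSP90AA1 at -0.21 (interval -0.67 to 0.26). With WA it lay between -0.55 for CHORDC1 (interval -1.15 to 0.04) and 0.28 for TRAP1 (interval -0.01 to 0.57), with HSP90AA1 at -0.02 (interval -0.49 to 0.45).

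The effect of WA was then compared between the lines with an interaction term. No gene was called at an adjusted p of 0.05 by edgeR (0% of 14085 genes), while 97 genes had an unadjusted p under 0.05 and DESeq2 called 1. Among the 9 genes the count was 0 at either level and 0 by DESeq2. The log2 difference of the MM1R effect from the MM1S effect was 0.19 for HSP90AA1 (95% interval -0.47 to 0.85) and -0.48 for CHORDC1 (interval -1.45 to 0.48). For HSP90AB1 it was -0.03 (interval -0.48 to 0.43), for TRAP1 0.01 (interval -0.40 to 0.43) and for CDC37 0.15 (interval -0.27 to 0.56). These intervals leave room for differences in either direction, and the widest belongs to CHORDC1.

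The paralog of the endoplasmic reticulum, HSP90B1 (GRP94), which folds immunoglobulins and integrins, was set beside the cytosolic genes. It measured 2520, 2168 and 2093 CPM in untreated MM1S and 2435, 2464 and 2123 CPM with WA, and 2218, 2445 and 2314 CPM in untreated MM1R and 2344, 2610 and 2227 CPM with WA. Its treated and untreated cultures overlapped in both lines, at log2 fold changes of 0.04 (95% interval -0.21 to 0.29, adjusted p = 0.87 by edgeR) in MM1R and 0.05 (interval -0.20 to 0.30, adjusted p = 0.85) in MM1S.

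Of 27 further HSP90 co-chaperones on a list chosen with earlier results of these data known, 26 were tested. In MM1R 7 were called higher and 2 lower, and in MM1S 7 higher and 1 lower, against 7.55% and 6.46% of all genes higher and lower in MM1R and 6.25% and 4.23% in MM1S. The list had a median of -0.03 in MM1R and -0.01 in MM1S (log2). With passage as replicate block, the counts were 8 higher and 5 lower in MM1R and 8 higher and 3 lower in MM1S.

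The rising co-chaperones were the same 7 genes in both lines, CACYBP, SUGT1, PPID, ST13, DNAJC7, NUDC and TSC1. CACYBP rose from 291 ± 64.3 to 699 ± 116 CPM (SD, n = 3) in MM1R and from 302 ± 25.2 to 745 ± 41.7 CPM in MM1S, log2 fold changes of 1.26 (adjusted p = 0.00023 by edgeR) and 1.30 (adjusted p = 0.00019). PPID, the cyclophilin of steroid receptor complexes, rose by 1.17 (adjusted p = 2.4e-05 by edgeR) and 1.24 (adjusted p = 1.5e-05) on the log2 scale. SUGT1, a partner of HSP90 at kinetochores and innate immune receptors, rose by 1.26 in MM1R and 1.05 in MM1S. ST13 (HIP), which acts with HSP70 upstream of STIP1, rose by 1.01 and 1.13. STUB1 (CHIP), the ubiquitin ligase of HSP70 and HSP90, fell by 0.38 on the log2 scale in MM1R (adjusted p = 0.050 by edgeR, just inside the limit) and by 0.41 in MM1S (adjusted p = 0.044). The phosphatase PPP5C fell by 0.45 in MM1R (adjusted p = 0.038) and stood at -0.33 in MM1S (adjusted p = 0.13), where the block brought it past the limit (adjusted p = 0.010 by edgeR).

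**Figure D5:**
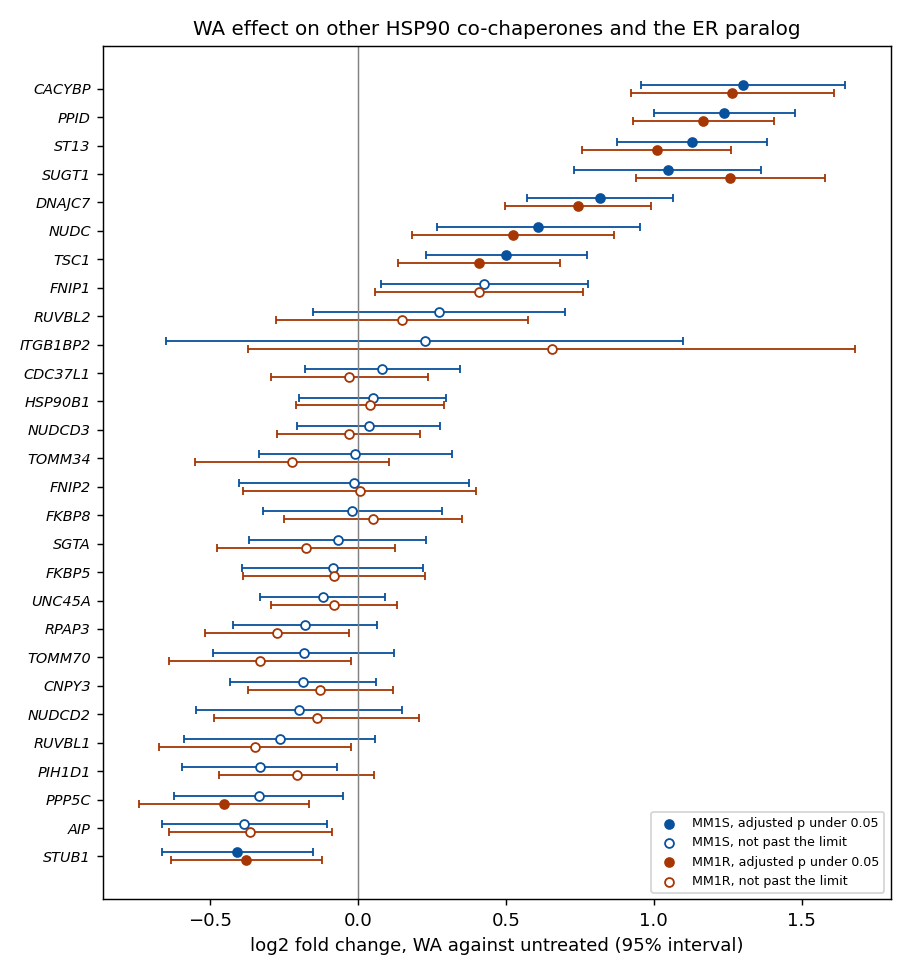
Log2 fold change with WA of the 26 tested further co-chaperones and of HSP90B1 and its ER co-chaperone CNPY3, with 95% intervals from the edgeR fit, filled where the adjusted p was under 0.05. The 7 genes called higher in both lines lie between 0.41 and 1.30, and HSP90B1 lies near 0 in both.

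Clients of HSP90 were counted from a list of 27, also chosen with earlier results of these data known, of which 26 were tested. In MM1R 1 was called higher and 5 lower, and in MM1S 0 higher and 2 lower, at medians of -0.19 and -0.20, and with passage as replicate block 3 higher and 11 lower in MM1R and 2 higher and 8 lower in MM1S. Over all genes, 7.55% were called higher and 6.46% lower in MM1R and 6.25% and 4.23% in MM1S, and 14.7% and 14.4% in MM1R and 12.5% and 11.7% in MM1S with the block. In the fit without the block, 13 clients in MM1R and 9 in MM1S had an unadjusted p under 0.05 in either direction, as did 3997 and 3503 of all 14085 genes. The called genes in MM1R included the kinases BRAF (0.48), BTK (-0.51, adjusted p = 0.044 by edgeR) and IKBKB (-0.45). Those in MM1S were the telomerase TERT (-1.16, adjusted p = 0.043 by edgeR) and AKT1 (-0.31, adjusted p = 0.044). With the block, BRAF (0.49 in MM1R and 0.43 in MM1S) and IKBKB (-0.45 and -0.26) were called in both lines. So were AKT1 (-0.29 and -0.32) and TERT (-0.96 and -1.22), the latter at 33 to 216 reads per library. BTK stood at -0.52 in MM1S (adjusted p = 0.075 by edgeR), and the block brought it past the limit at -0.52 (adjusted p = 0.041). Its pairs in MM1S were uneven, with log2 changes of -1.02, -0.03 and -0.43 at passage 16, 22 and 23. BTK had only 155 to 211 reads in untreated MM1S and 95 to 147 with WA. The glucocorticoid receptor NR3C1, the best known steroid receptor client, stood at -0.02 (adjusted p = 0.97 by edgeR) in MM1R and -0.11 (adjusted p = 0.81) in MM1S. Its mean level differed between the lines, at 14.4 CPM in untreated MM1R and 112 CPM in untreated MM1S.

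For each of the 7 genes called in both lines, the non-member with the most similar profile was taken by the correlation of log2 CPM over the 12 libraries. These were the HSP70 partner DNAJA1 for HSP90AA1 (r = 0.995), the transcription factor subunit GTF3C3 for HSP90AB1 (r = 0.994), the reductase SPR for AHSA1 (r = 0.991), ST13 for STIP1 (r = 0.993), PPID for PTGES3 (r = 0.988), DNAJC7 for FKBP4 (r = 0.994) and ANKMY2 for CHORDC1 (r = 0.975). The 12 libraries fall into treated and untreated ones, so that these values mostly describe the shared step with WA. DNAJA1 itself rose by 2.02 in MM1R and 1.88 in MM1S on the log2 scale.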

How the data were processed

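RNA was sequenced from 12 cultures, and line, treatment and passage number (used as replicate number) were taken from the labels. The authors deposited raw counts per gene, made, per the labels, with FastQC 0.11.5, STAR 2.7.3a and hg19. Annotation and strand setting are not given in the sources used here. The deposited normalized signal equalled the counts divided by 1 size factor per library and served only as an alternative for the paralog ratio. Within groups, no libraries were duplicates (squared differences between counts of replicates averaged 8.06 to 44.3 times those of sampling noise).

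Counts were filtered with filterByExpr (minimum count 10), scaled with TMM and tested in 1 edgeR 4.0.16 quasi-likelihood fit (R 4.3.3) of all libraries, with Benjamini-Hochberg adjustment over 14085 genes. DESeq2 1.42.0, the tool the study used, was an alternative. CPM are counts over the TMM library size. Changes within a pair used a pseudocount of 0.5 CPM. On simulated counts of 14085 genes, 83.2% and 84.9% of genes changed by 1.58 (log2) were recovered by edgeR for WA in MM1R and MM1S. Of the calls, 2.96% and 5.59% were false. The simulated libraries shared no passage, and smaller changes, such as that of TRAP1, were not covered. Deviations of same-passage libraries correlated at 0.43, 0.22 and 0.25 in MM1R and 0.74, 0.26 and 0.49 in MM1S, and the labels give the shared passage, so the block fit was treated as paired. Coordinates, exons and transcript lengths are those of GENCODE for GRCh37. Start-site windows are those of RefSeq (GRCh38.p14).

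The members and gene lists were chosen with earlier results of these data known. All 9 members are named. Of the lists, HSP90B1 and at most 3 called genes per direction and WA comparison with the largest change are named with values, besides NR3C1 and BTK, and for each member called in both lines the gene with the highest correlation. DNAJC7, NUDC, TSC1 and CNPY3, which complete counts, AHSA2P and the markers were named after their values were seen. Alternatives covered scaling, filters, DESeq2, only the libraries compared, the block, other limits and each library left out. Leaving out both passage 16 libraries of MM1S was chosen after seeing the data. One client that this rule names is not reported here. The client KIT and the co-chaperone TTC4 did not pass the filter.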

Additional observations from a re-analysis of the deposited data

How the results depend on the processing

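The 7 rising members were called in each line under every alternative run, with 8 members called under the replicate block, and line comparisons and interaction called 0 members under all. Over all genes, WA calls numbered 4094 in MM1R and 3399 in MM1S with the replicate block (1973 and 1476 without it), 812 and 556 at an adjusted p of 0.01, and 950 to 2099 and 726 to 1507 with single libraries left out. In MM1R the libraries whose loss moved the count by over 1.5 times were untreated passage 6 (950) and 7 (1215) and WA passage 4 (1297) and 7 (1074), and in MM1S untreated passage 22 (729) and 23 (726) and WA passage 16 (930) and 23 (816). In MM1S they numbered 690 without both passage 16 libraries, where fewer samples were used. Line calls in untreated and WA cultures numbered 811 and 819 without a filter, 234 and 222 where all libraries had to hold at least 10 reads, 1681 and 1690 at an adjusted p of 0.05, 755 and 817 without passage 16, and 268 to 537 and 264 to 649 with single libraries left out, the former moved most by untreated MM1R passage 6 (268), the latter by WA cultures of MM1R passage 6 (272) and MM1S passage 16 (649), 22 (264) and 23 (283). The interaction gave 11 calls without a filter and 1 with DESeq2. The cause of these shifts was not tested. Among the members, only differences that were never called changed sign. In untreated cultures these were STIP1 (0.012 with only the 6 libraries compared, -0.17 to 0.10 with single libraries left out), AHSA1 (-0.33 to 0.0036), CHORDC1 (0.20 without passage 16, -0.30 to 0.20) and CDC37 (-0.024 to 0.086), and with WA HSP90AA1 (0.0084 with at least 10 reads, -0.27 to 0.16). In the interaction they were FKBP4 (0.0048 with DESeq2's size factors, 0.026 with at least 10 reads, 4.2e-05 with DESeq2, 0.00084 with the replicate block, 0.051 without passage 16, -0.15 to 0.21), HSP90AB1 (0.0044 with at least 10 reads, 0.034 without passage 16, -0.14 to 0.12), TRAP1 (-0.055 without passage 16, -0.090 to 0.13), AHSA1 (-0.12 to 0.21), PTGES3 (-0.041 to 0.20), HSP90AA1 (-0.059 to 0.38) and STIP1 (-0.22 to 0.044). With single libraries left out, the paralog ratio step was 2.06 to 2.33 in MM1R and 1.93 to 2.11 in MM1S. Apart from TRAP1, the block changed no member's call. CHORDC1, with 12 to 109 reads, is the member that depth limits most.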
